A study of Cricetulus griseus with 9 samples.

Results

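The genes described here are 7 integrin subunits (Itgb1, Itgb3, Itgb5, Itga3, Itga5, Itga6 and Itgav), the integrin ligand fibronectin (Fn1) and the focal adhesion proteins vinculin (Vcl) and focal adhesion kinase (Ptk2). They were chosen as a list of 10 mouse Ensembl identifiers, and all 10 are among the 15557 genes of the deposited table. Their levels were measured by mRNA sequencing of CHO-K1 cells, an epithelial-like line from Chinese hamster ovary, 48 h after lipid transfection. The molecule transfected was pre-miR-29b-1 in 1 group of 3 libraries, pre-miR-29a in a second and anti-miR-29a in the last, and the labels give no other difference. The pre-miRs are synthetic precursors of the microRNAs they are named for, and the submitters describe the anti-miR as a blocker of miR-29a and miR-29b-1 together. Cells without a miR-29 reagent were not analysed here, so a lower level with a pre-miR and a higher level with the anti-miR cannot be told apart. Cells were grown in triplicate, but no label ties each library to a culture of its own, and the p-values reflect the spread of these libraries, which may be technical. The text of the series can also be read as 1 transfection experiment per molecule, in which case experiment and group cannot be told apart.

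Integrins are heterodimers of an alpha and a beta chain that span the plasma membrane and attach cells to the extracellular matrix. The beta chain ITGB1 pairs with many alpha chains, among them ITGA3 and ITGA6, which bind laminins, and ITGA5, which binds fibronectin. ITGAV pairs with ITGB1, ITGB3 or ITGB5 and binds vitronectin and other ligands. On the cytoplasmic side the beta tails recruit adaptors, vinculin couples these to actin filaments, and focal adhesion kinase signals from the site. MicroRNAs of the miR-29 family pair through a shared seed with target mRNAs and lower their level or translation, and matrix genes such as collagens are their best known targets. CHO cells are known to attach to fibronectin through the ITGA5 and ITGB1 pair.

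The deposited models follow coding exons, on scaffolds of the hamster assembly CriGri_1.0, and leave out untranslated regions. Each of the 10 genes has 1 model that shares no exon bases with another gene. Among the beta chains, Itgb1 (ENSMUSG00000025809) lies on JH000960 from 292203 to 318997, minus strand, and holds 2397 coding bases in 15 exons. Itgb5 (ENSMUSG00000022817) lies on JH000012 from 3336295 to 3440946, plus strand, with 14 exons and 2346 bases. Itgb3 (ENSMUSG00000020689) lies on JH000347 from 124505 to 165146, plus strand, with 14 exons and 2295 bases. The models of Itgb5 and Itgb3 thus have the same number of coding exons, and the longest exon has 430 bases in each.

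The alpha chains have longer models with more exons. Itga5 (ENSMUSG00000000555) lies on JH001354 from 61643 to 75801, minus strand, and holds 2934 bases in 29 coding exons. Itgav (ENSMUSG00000027087) lies on JH000385 from 356500 to 419886, minus strand, with 2949 bases in 29 exons, so that it matches Itga5 in exon number but spans 63387 bases against 14159. Itga3 (ENSMUSG00000001507) lies on JH000436 from 1065714 to 1094836, plus strand, with 25 exons and 3201 bases. Itga6 (ENSMUSG00000027111) lies on JH000027 from 3017543 to 3081513, plus strand, with 25 exons and 3276 bases. The laminin-binding chains Itga3 and Itga6 thus also match in exon number.

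Outside the integrins, Fn1 (ENSMUSG00000026193) has the longest model, with 47 coding exons and 7431 bases on JH001096 from 234680 to 302401, plus strand. Vcl (ENSMUSG00000021823) lies on JH000053 from 355258 to 448266, plus strand, with 21 exons and 3201 bases. Ptk2 (ENSMUSG00000022607) lies on JH001423 from 91362 to 236709, plus strand, with 33 exons and 3276 bases.

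Levels are given in FPKM, fragments per kilobase of gene model scaled by library size. The steps between low values implied library sizes of 15900000 to 21880000 reads. These may be scaled sizes rather than the reads sequenced, since the labels state no scaling. The 8 genes above 1 FPKM rested on 1838 reads (Vcl, lowest library) to 47120 reads (Itgb1, highest library). Tests used log2(FPKM + 1) in limma over the 9504 genes whose mean reached 1 FPKM, with Benjamini-Hochberg adjustment and a threshold of 0.05. Of the 10 listed genes 8 passed that filter, and Itgb3 and Itga6 did not.

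Of the 5 integrin mRNAs tested, 4 were lower with either pre-miR than with anti-miR-29a, and the size of the difference varied from gene to gene. Itgb1 and Itga5, which encode the chains of the fibronectin receptor, were about 3-fold lower, Itga3 about 2-fold lower, and Itgav and Vcl more modestly lower. Itgb5, Fn1 and Ptk2 did not pass the test. With pre-miR-29b-1, 5 of the 8 tested genes were called lower and 0 higher, against 29.4% of all tested genes lower and 25.8% higher (limma). With pre-miR-29a, the same 5 of 8 were called lower and 0 higher, against 30.9% lower and 27.5% higher among all tested genes. Quantile normalization turned the balance over all genes in both comparisons. The calls became 2474 lower and 3170 higher for pre-miR-29b-1, in place of 2795 and 2451, and 2494 lower and 3340 higher for pre-miR-29a, in place of 2940 and 2613. The counts among the 8 genes were the same after it. The median log2 fold change of the 8 genes was -0.52 with pre-miR-29a and -0.40 with pre-miR-29b-1, and over all tested genes it was -0.016 and -0.006. The anti-miR-29a libraries are shared by these comparisons. In these bulk samples, fewer cells of a kind and less RNA per cell cannot be told apart.

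**Figure D1:**
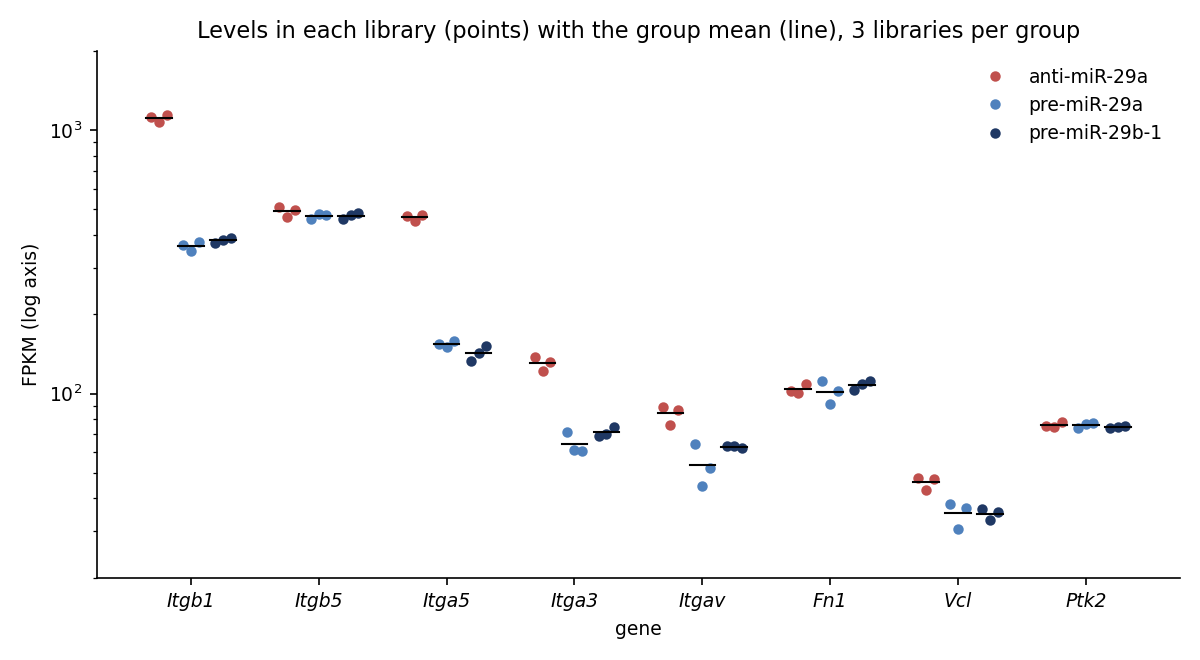
FPKM (log axis) of the 8 genes above 1 FPKM in each of the 9 libraries, with points for libraries and a line for the mean of each group. For Itgb1 the anti-miR-29a libraries sit between 1075 and 1141 FPKM and the 6 pre-miR libraries between 348 and 388 FPKM, while the groups overlap for Itgb5, Fn1 and Ptk2.

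Itgb1, the common beta chain, was the most abundant of these transcripts with anti-miR-29a, at 1122, 1075 and 1141 FPKM in the 3 libraries. It stood at 372, 384 and 388 FPKM with pre-miR-29b-1. In the pre-miR-29a libraries it stood at 365, 348 and 376 FPKM. All 6 pre-miR libraries lay far below all anti-miR-29a libraries, and the pre-miR groups overlapped each other. The group means were 1112 ± 33.9 FPKM (SD, n = 3) with anti-miR-29a, 363 ± 14.4 FPKM with pre-miR-29a and 381 ± 8.78 FPKM with pre-miR-29b-1. The log2 fold change was -1.54 (SE 0.050, adjusted p 1.99e-08, limma) for pre-miR-29b-1, a level 2.91-fold lower (95% interval 2.69 to 3.15). For pre-miR-29a it was -1.61 (SE 0.050, adjusted p 1.64e-08, limma), a level 3.06-fold lower (2.83 to 3.31).

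Itgb5, the beta chain that pairs with ITGAV, showed no such difference. Its levels were 509, 468 and 497 FPKM with anti-miR-29a and 459.7, 474 and 483 FPKM with pre-miR-29b-1. In the pre-miR-29a libraries they were 462, 482 and 477 FPKM. The groups overlapped in every pairing. Its log2 fold change was -0.06 (SE 0.050, adjusted p 0.368, limma) for pre-miR-29b-1, with a 95% interval from 10.9% lower to 3.94% higher. For pre-miR-29a it was -0.05 (SE 0.050, adjusted p 0.391, limma), with an interval from 10.7% lower to 4.20% higher. The intervals thus exclude a difference of the size seen in Itgb1.

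Itgb3, another beta chain that pairs with ITGAV, was listed at 0 in 8 of 9 libraries. The remaining library, pre-miR-29a replicate 1, held 0.0244 FPKM, which is 1 implied read. A listed 0 allows a level of up to 0.0654 to 0.0901 FPKM, depending on the library, taken as 3 reads and for counting error only. Itgb3 was left out of the main fit because its mean was under 1 FPKM. Every group was at or under the limit of 3 reads, so no fold change is given.

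Itga5, which binds fibronectin as the partner of ITGB1, stood at 474, 453 and 478 FPKM with anti-miR-29a. Its levels were 134, 143 and 151 FPKM with pre-miR-29b-1 and 154, 150.3 and 158 FPKM with pre-miR-29a. As with Itgb1, no pre-miR library came near the anti-miR-29a libraries. The means were 468 ± 13.3 FPKM (SD, n = 3), 143 ± 8.73 FPKM and 154 ± 3.72 FPKM in the same order. With pre-miR-29b-1 Itga5 had a log2 fold change of -1.71 (SE 0.053, adjusted p 1.58e-08, limma), a level 3.27-fold lower (95% interval 3.01 to 3.55). For pre-miR-29a it was -1.60 (SE 0.053, adjusted p 2.28e-08, limma), a level 3.03-fold lower (2.79 to 3.29).

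Itga3, a laminin-binding alpha chain, stood at 137, 122 and 131 FPKM with anti-miR-29a. It stood at 68.8, 70.2 and 75.0 FPKM with pre-miR-29b-1 and at 71.3, 61.0 and 60.5 FPKM with pre-miR-29a. The pre-miR libraries were again all below the anti-miR-29a libraries, by a smaller margin than for Itga5. The log2 fold change was -0.86 (SE 0.073, adjusted p 7.11e-06, limma) for pre-miR-29b-1, a level 1.81-fold lower (95% interval 1.62 to 2.03). For pre-miR-29a it was -1.01 (SE 0.073, adjusted p 2.09e-06, limma), a level 2.01-fold lower (1.80 to 2.26).

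Itgav, the alpha chain of the vitronectin receptors, differed less and was less even between libraries. Its levels were 89.4, 76.2 and 86.9 FPKM with anti-miR-29a and 63.2, 63.1 and 62.4 FPKM with pre-miR-29b-1. In the pre-miR-29a libraries they were 64.6, 44.7 and 52.1 FPKM, the widest relative spread of any of the 8 genes in a group, at 18.7% of the mean. All pre-miR libraries were below the lowest anti-miR-29a library, as for Itgb1, Itga5, Itga3 and Vcl. The share of all tested genes that separate from anti-miR-29a in this way was not counted. It may be large, since 55.2% of all tested genes were called for pre-miR-29b-1 and 58.4% for pre-miR-29a (limma). The log2 fold change was -0.41 (SE 0.113, adjusted p 0.0115, limma) for pre-miR-29b-1, a level 1.33-fold lower. For pre-miR-29a it was -0.65 (SE 0.113, adjusted p 0.000765, limma), a level 1.57-fold lower.

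Itga6, another laminin-binding alpha chain, was listed at 0 in 7 of 9 libraries. It stood at 0.0332 FPKM in pre-miR-29a replicate 1 and 0.0163 FPKM in pre-miR-29a replicate 2, which are 2 reads and 1 read. The limit of 3 reads lies at 0.0446 to 0.0613 FPKM for this gene, so no group rose above it.

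**Figure D2:**
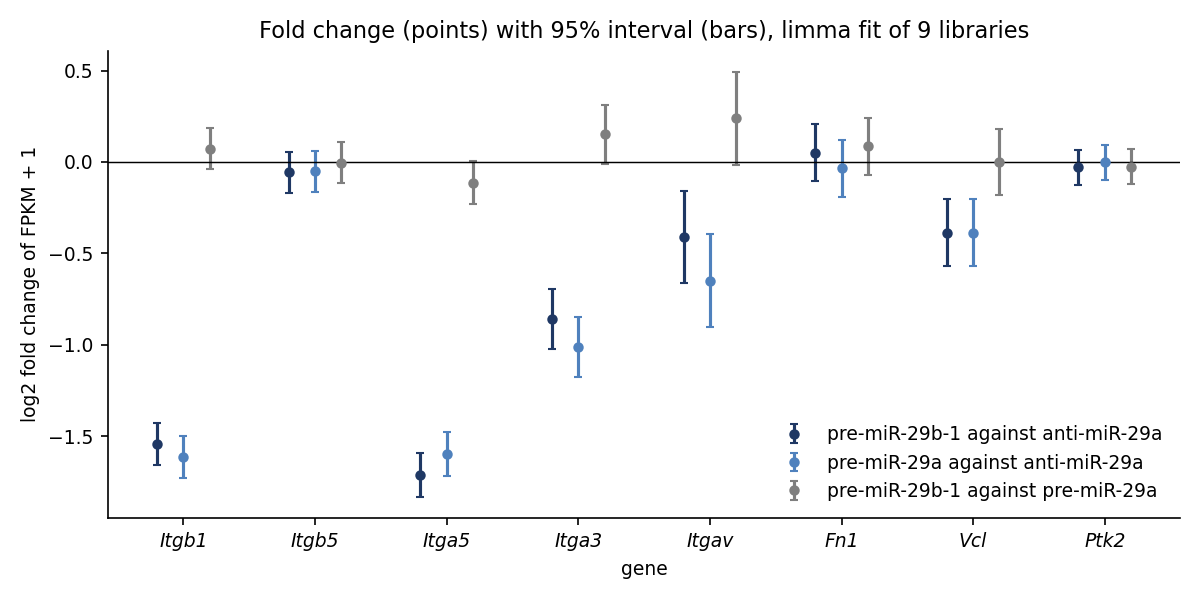
Log2 fold change of FPKM + 1 (points) with its 95% interval (bars) for the 8 tested genes in 3 comparisons from 1 limma fit of 9 libraries. The intervals of Itgb1, Itga5, Itga3, Itgav and Vcl lie below 0 against anti-miR-29a, and those between the pre-miRs include 0 for all 8 genes.

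Fn1, which encodes the matrix glycoprotein bound by the ITGA5 and ITGB1 pair, did not differ detectably while its receptor chains were lower. It stood at 103, 101 and 109 FPKM with anti-miR-29a, at 103, 109 and 112 FPKM with pre-miR-29b-1 and at 111, 91.7 and 102 FPKM with pre-miR-29a. The groups overlapped throughout. For pre-miR-29b-1 the log2 fold change was 0.05 (SE 0.070, adjusted p 0.563, limma), with a 95% interval from 7.07% lower to 15.5% higher. For pre-miR-29a it was -0.04 (SE 0.070, adjusted p 0.685, limma), with an interval from 12.5% lower to 8.75% higher.

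Vcl, the actin linker of focal adhesions, was lower by about the same amount with each pre-miR. It stood at 47.7, 43.2 and 47.3 FPKM with anti-miR-29a, at 36.4, 33.3 and 35.4 FPKM with pre-miR-29b-1 and at 38.0, 30.7 and 36.7 FPKM with pre-miR-29a. The pre-miR libraries did not reach the lowest anti-miR-29a library. Its log2 fold change was -0.39 (SE 0.081) in both comparisons, a level 1.31-fold lower, with an adjusted p of 0.00268 for pre-miR-29b-1 and of 0.00240 for pre-miR-29a (limma).

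Ptk2, the kinase of focal adhesions, lay between 73.8 and 78.3 FPKM in all 9 libraries. Its levels were 75.2, 74.6 and 78.3 FPKM with anti-miR-29a and 74.2, 74.4 and 75.1 FPKM with pre-miR-29b-1. In the pre-miR-29a libraries they were 73.8, 76.5 and 77.5 FPKM. The log2 fold change was -0.03 (SE 0.043, adjusted p 0.598, limma) for pre-miR-29b-1 and -0.002 (SE 0.043, adjusted p 0.970, limma) for pre-miR-29a. The 95% intervals ran from 8.19% lower to 4.76% higher and from 6.52% lower to 6.67% higher, so a difference as large as that of Vcl lies outside them.

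When the pre-miR groups were averaged and set against anti-miR-29a, 5 of the 8 genes were called lower and 0 higher, against 32.3% and 29.3% of all tested genes (limma). Here too quantile normalization turned the balance over all genes, to 2627 lower and 3529 higher in place of 3074 and 2783. At least 2-fold lower were 2 of the 8, Itgb1 and Itga5, against 3.81% of all tested genes. In this comparison 67 of the 9504 genes, Itga5 included, had a log2 fold change at or below that of Itga5, which was -1.65 (SE 0.046, adjusted p 4.32e-09, limma). For Itgb1, at -1.58 (SE 0.044, adjusted p 4.32e-09, limma), the number was 79. Itga3, at -0.94 (SE 0.063, adjusted p 9.83e-07, limma), had 453 genes at or below it, Itgav 1255 and Vcl 1819. The genes that missed the threshold lay near the middle, with 4301 genes at or below Itgb5, 4713 at or below Ptk2 and 4944 at or below Fn1.

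**Figure D3:**
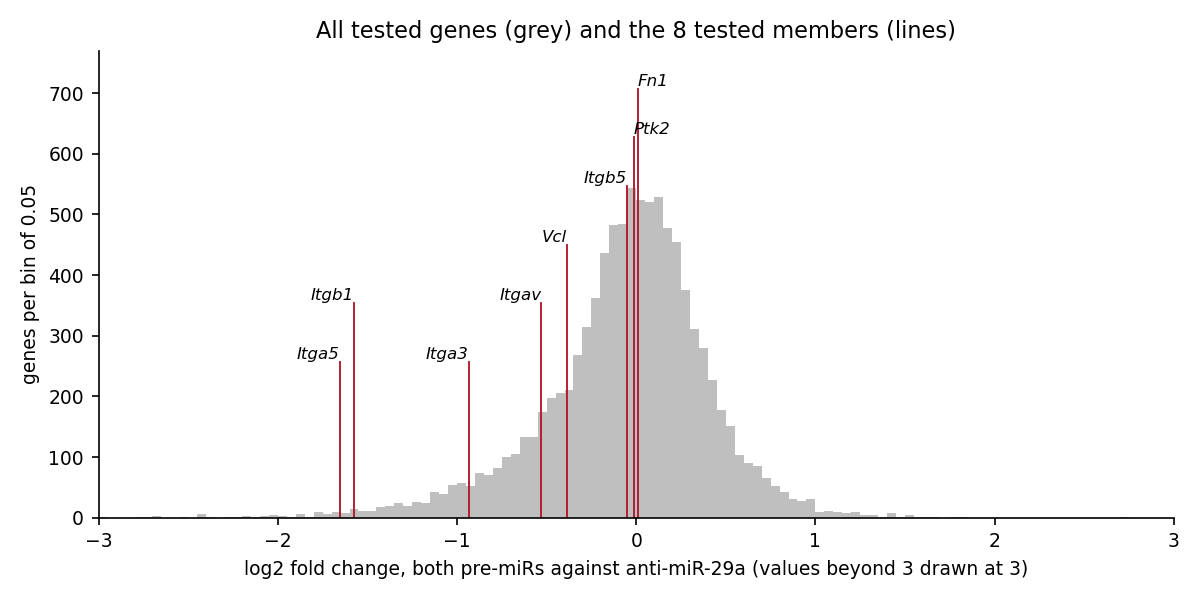
Number of tested genes per bin of 0.05 log2 units (grey) by log2 fold change, averaged over the pre-miRs and relative to anti-miR-29a, with a line for each of the 8 genes. Itga5 and Itgb1 stand in the lower tail at -1.65 and -1.58, and Fn1, Ptk2 and Itgb5 near 0.

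The order of the levels differed between the groups. FPKM are per length, but how complete each gene model is was not checked, so the order between genes is approximate. With anti-miR-29a the order was Itgb1 (1112 FPKM), Itgb5 (491), Itga5 (468), Itga3 (130.4), Fn1 (104), Itgav (84.1), Ptk2 (76.0) and Vcl (46.1). In that group the libraries of Itgb5 and Itga5 overlapped, as did those of Itgav and Ptk2. With pre-miR-29b-1 Itgb5 came first (472 FPKM), before Itgb1 (381) and Itga5 (143), followed by Fn1 (108), Ptk2 (74.5), Itga3 (71.3), Itgav (62.9) and Vcl (35.0). Only Ptk2 and Itga3 overlapped there among neighbours. With pre-miR-29a the order was the same, with Itgb5 at 474 FPKM and Itgb1 at 363 FPKM, and Itga3 and Itgav were the overlapping neighbours. Among the 9504 tested genes, the mean of Itgb1 stood at percentile 98.3 with anti-miR-29a and at 94.3 with pre-miR-29a and 94.8 with pre-miR-29b-1.

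Summed over Itgb1, Itgb3 and Itgb5, beta chain transcripts came to 1604 ± 53.1 FPKM (SD, n = 3) with anti-miR-29a, 837 ± 14.7 FPKM with pre-miR-29a and 854 ± 20.6 FPKM with pre-miR-29b-1. Itgb1 made up 68.8% to 69.7% of that sum with anti-miR-29a and 41.9% to 44.8% in the pre-miR libraries. The 4 alpha chains summed to 683 ± 27.2 FPKM, 272 ± 17.1 FPKM and 277 ± 11.4 FPKM in the same order of groups. Itga5 made up 67.6% to 69.5% of the alpha sum with anti-miR-29a, 53.1% to 58.7% with pre-miR-29a and 50.3% to 52.4% with pre-miR-29b-1. These sums cover the listed chains alone and, like the order of levels, rest on FPKM compared between genes.

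**Figure D4:**
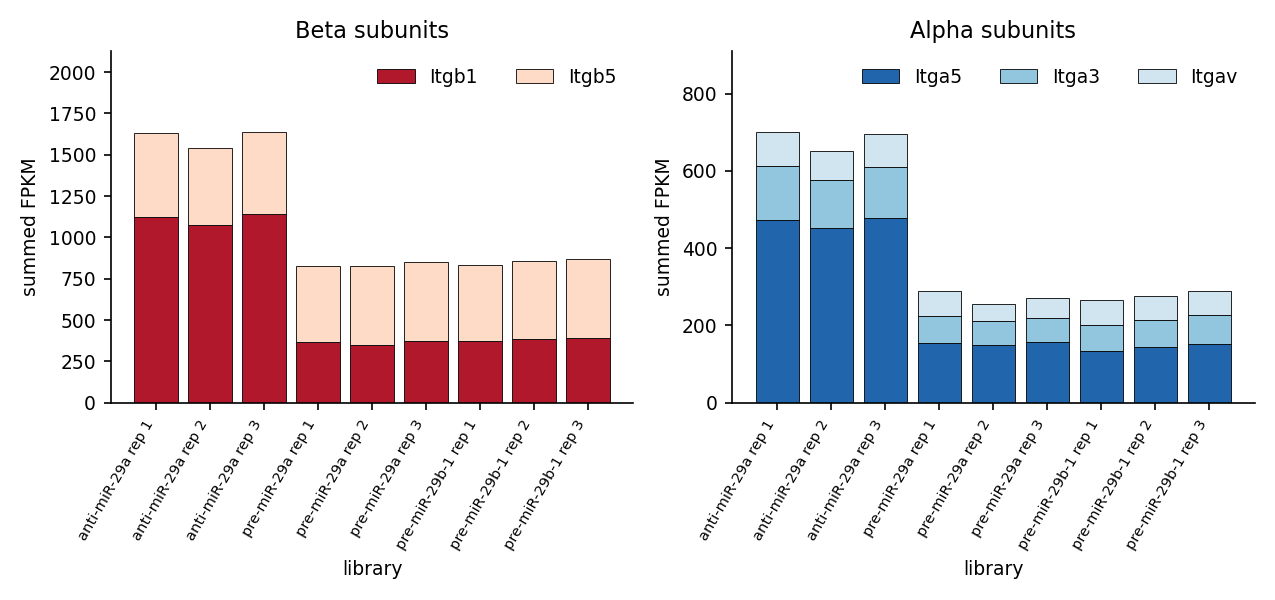
Stacked FPKM of the beta chains (left) and alpha chains (right) in each library. Itgb3 and Itga6, at or near 0, are not drawn. The Itgb1 and Itga5 segments are shorter in all 6 pre-miR libraries, and the Itgb5 segment stays between 459.7 and 509 FPKM in all 9.

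Ratios of genes within a library do not depend on how libraries were scaled to each other. The 4 ratios given here were chosen after the values were seen, so they are a description with no test. Itgb1 stood at 2.20 to 2.30 times Itgb5 in the anti-miR-29a libraries and at 0.722 to 0.810 times in the pre-miR libraries, so that Itgb5 was the higher of the beta chains in all 6. The mean difference in log2 ratio was -1.53. Itga5 stood at 3.45 to 3.70 times Itga3 with anti-miR-29a and at 1.94 to 2.61 times with the pre-miRs, a mean difference of -0.71 in log2 ratio. For Itga5 over Itgav the ratios were 5.30 to 5.95 and 2.11 to 3.36, a mean difference of -1.12. In each of these 3 ratios the pre-miR libraries did not overlap the anti-miR-29a libraries. How often ratios of other genes separate in this way was not counted.

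The ratio of Itgb1 to Itga5 differed little between the groups, while both levels were about 3-fold lower with the pre-miRs. It was 2.37, 2.37 and 2.39 in the anti-miR-29a libraries and 2.37, 2.31 and 2.38 with pre-miR-29a. With pre-miR-29b-1 it was 2.78, 2.69 and 2.57, above all other libraries. Over both pre-miRs the log2 ratio differed from anti-miR-29a by a mean of 0.08. Among the 8 genes, the profiles of Itgb1 and Itga5 over the 9 libraries were each other's nearest, at a Euclidean distance of 0.265 between centred log2 values. Itgb5 and Ptk2, neither of which passed the test, were nearest each other at 0.114, and Vcl and Itgav at 0.42.

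**Figure D5:**
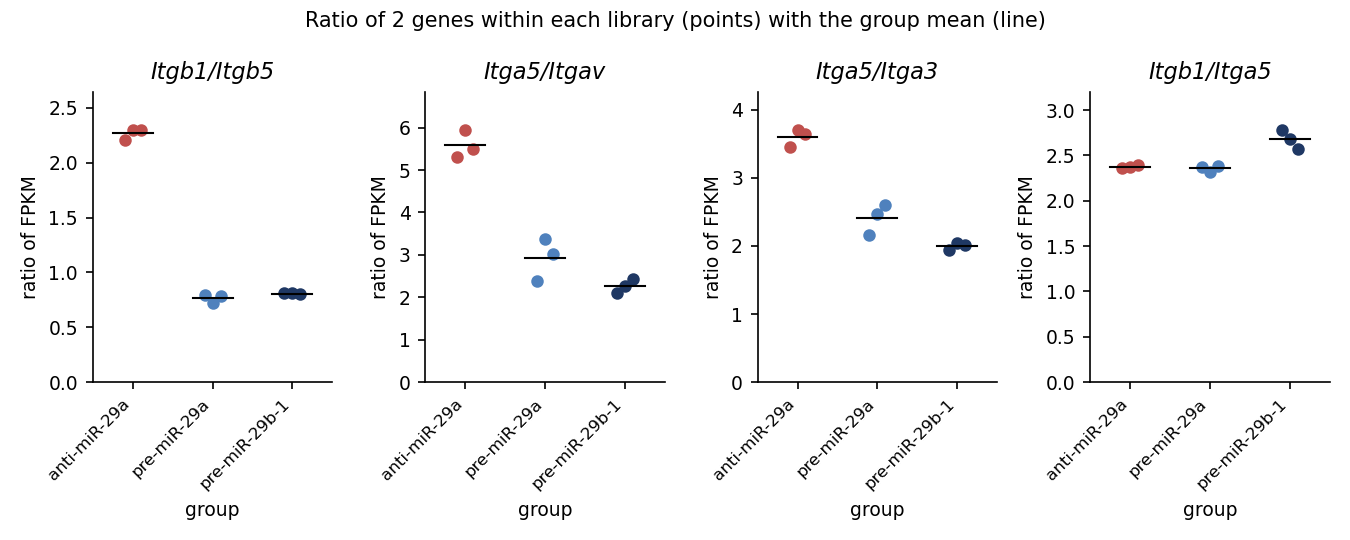
Ratio of FPKM of paired genes within each library (points, with the mean of each group as a line) on linear axes from 0. Itgb1 over Itgb5 lies at 2.20 to 2.30 with anti-miR-29a and at 0.722 to 0.810 with the pre-miRs, while Itgb1 over Itga5 lies between 2.31 and 2.78 in all libraries.

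The pre-miRs, which differ in the miR-29 family member they yield, were then compared with each other. None of the 8 genes passed the threshold, against 0.0105% of all tested genes (limma). An unadjusted p under 0.05 was reached by 0 of the 8, against 1570 of the 9504 tested genes (limma). Groups that did not overlap were seen for 0 of the 8, against 18.9% of all tested genes. Itgav differed by 0.24 (SE 0.113, adjusted p 0.323, limma) in log2 FPKM, with a 95% interval from 1.05% lower to 40.6% higher with pre-miR-29b-1. For Itga3 the difference was 0.15 (SE 0.073, adjusted p 0.331, limma), with an interval from 0.836% lower to 24.3% higher. Itga5 went the other way, at -0.11 (SE 0.053, adjusted p 0.322, limma), with an interval from 14.9% lower to 0.481% higher. For Itgb1 the interval ran from 2.79% lower to 13.6% higher, and for Vcl from 11.8% lower to 13.5% higher. Fn1 allowed 4.75% lower to 18.3% higher, Itgb5 7.67% lower to 7.75% higher, and Ptk2 8.06% lower to 4.91% higher.

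The absence of calls between the pre-miRs rested in part on pre-miR-29a replicate 1. Without it 2 of the 8 genes passed, Itgav at 0.38 (adjusted p 0.0304, limma) and Itga3 at 0.23 (adjusted p 0.0423, limma), both higher with pre-miR-29b-1, while 14.4% of all tested genes passed. Without pre-miR-29a replicate 2 the Itgav difference was instead 0.12 (adjusted p 0.641, limma), against 0.24 with all libraries. With libraries weighted by their estimated scatter, pre-miR-29a replicate 1 had a weight of 0.213, replicate 2 of 0.429 and replicate 3 of 3.54. The pre-miR-29a level in the weighted fit thus rested mostly on replicate 3. In that fit 3 genes passed, Itga3, Itgav and Itga5, and 38.2% of all tested genes. The ratios within a library did not overlap between the pre-miRs for Itgb1 over Itga5, Itga5 over Itga3 and Itgb1 over Itgb5. For Itga5 over Itgav they did overlap. These ratios were chosen after the values were seen, so this too is a description with no test. How often ratios of other genes do not overlap between the pre-miRs was not counted. The 18.9% given above is a share of single genes and is no measure for ratios.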

How the data were processed

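The authors deposited 1 table of FPKM values per gene for the 9 libraries and the gene models behind it. The submitters' processing notes name FastQC, TopHat2 (2.0.13) and Cuffnorm, per the labels, which state neither scaling nor strand setting nor filters. Per the file headers, models are mouse proteins of Ensembl aligned to CriGri_1.0, so reads outside coding regions do not count. Genes carry identifiers without names. The names of the 10 genes came with the list of identifiers, and the list and tests were chosen with earlier results of these data known. A list of 56 further integrin, focal adhesion and ligand symbols could not be tested, since 0 identifiers matched the RefSeq table of CriGri-PICRH-1.0. Sequences were not used here.

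All 9 libraries entered 1 limma 3.58.1 fit (R 4.3.3) of log2(FPKM + 1) with a term per group and variances moderated along mean level, for genes averaging 1 FPKM or more. On that scale changes of low genes are understated. Two-sided p-values were adjusted by Benjamini-Hochberg over all tested genes, at a threshold of 0.05. All listed genes are named. Depth came from 4207 genes with 1 model and at least 1500 coding bases. The fit was tested on simulated data. Alternatives changed the pseudocount, filter, scaling, variance model, library weights, libraries in the fit and replicate block.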

Additional observations from a re-analysis of the deposited data

How the results depend on the processing

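Against anti-miR-29a, 5 listed genes passed for pre-miR-29b-1, for pre-miR-29a and for both together under every alternative run. This includes the fits with each left-out library and with the replicate block. Itgb1, Itga5, Itga3, Itgav and Vcl kept their direction and call in each alternative. The closest to the threshold was Itgav for pre-miR-29b-1 without moderation, at an adjusted p of 0.0469 (limma). These 5 were of 8 tested, except without the filter, where all 10 listed genes were tested. In that setting 40.6% (pre-miR-29b-1), 42.7% (pre-miR-29a) and 46.3% (both together) of 13376 genes passed. Between the pre-miRs the count was 0, but 3 with array weights and 0 to 2 without 1 library, with 2 when pre-miR-29a replicate 1 was left out, and the cause was not tested. Deviations from the group means correlated between libraries of the same number with r of -0.02 to 0.29, above 0.1 in 6 of 9 pairs, against -0.28 to 0.09 between different numbers. Since 3 pairs were not above 0.1 and no label says that a number marks a shared culture or day, the numbers were not taken as pairs. As a hint from the data, 4 of 9 libraries correlated best with their own number in each other group. With the replicate block 1.94% of all tested genes passed between the pre-miRs in place of 0.0105%, and 0 of the 8. The tested genes rested on at least 1838 implied reads in each library, while Itgb3 and Itga6 lie at the limit of detection. The ratios within a library kept their sign with each alternative run on them, chosen after seeing the data.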

Other observations

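Low FPKM values gave the reads behind them. When 200 bases were subtracted from each coding length, values of up to 5 reads fell on whole reads, with 99.78% to 100% of 377 to 460 values per library within 0.05 reads. Read in this way, the 9 libraries held 226760 reads for Itgb1, 176822 for Itgb5, 130315 for Fn1 and 115889 for Itga5. For the chains at the limit of detection they held 3 reads for Itga6 and 1 for Itgb3, all in pre-miR-29a libraries.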
